A study of Homo sapiens with 14 samples.

Results

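The 10 genes described here are the inhibitor of differentiation genes ID1, ID2, ID3 and ID4 and 6 components of the bone morphogenetic protein (BMP) pathway: the ligands BMP4 and BMP7, the receptors BMPR1A and BMPR2, and the inhibitory SMADs SMAD6 and SMAD7. They were chosen by name, not by a measured value, though with earlier results of these data known. The choice was made from a table of 17810 genes for the OmoMYC experiment and one of 19143 genes for the dTAG47 experiment. All 10 are listed in both tables. BMP ligands bring together type I receptors such as BMPR1A and type II receptors such as BMPR2, and the activated type I receptor phosphorylates SMAD1, SMAD5 and SMAD9, which enter the nucleus with SMAD4. ID genes are among the best known direct targets of these SMADs, as are SMAD6 and SMAD7, whose proteins feed back to dampen the signal. ID proteins have the helix-loop-helix domain that pairs bHLH transcription factors but lack the basic region that contacts DNA. They therefore hold E proteins such as TCF3, TCF4 and TCF12 in dimers that do not bind DNA, and in neural crest derivatives they are known for delaying neuronal differentiation.

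RNA-seq of ribosomal RNA-depleted total RNA was analysed from 14 libraries of CHP-134, an established human neuroblastoma line with amplified MYCN. In the first experiment, CHP-134 cells transduced with a lentiviral Tet-On vector expressed either enhanced green fluorescent protein (EGFP, 3 libraries) or OmoMYC (3 libraries), a mutated MYC dimerization domain that acts as a genetic inhibitor of MYC proteins. Cells of both groups received 1 µg/ml doxycycline for 3 days in medium with tetracycline-approved serum, and the comparison addresses which genes depend on N-MYC. In the second, parental CHP-134 cells in normal serum received 500 nM dTAG47 (4 libraries) or its solvent DMSO (4 libraries) for 18 hr. dTAG47 is a small molecule that directs proteins fused to a mutant FKBP12 tag to degradation, and parental cells carry no such tag, so this comparison is the study's control for effects of the compound itself. Because the EGFP line and the OmoMYC line were engineered separately, every value of that comparison includes any difference between the lines. In bulk RNA, fewer cells that express a gene and less of its RNA per cell cannot be told apart.

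The libraries hold 28060817 to 38358128 counts in the OmoMYC experiment and 40861430 to 53451641 in the parental experiment. Counts on MYC, which include any reads of the MYC-derived OmoMYC transgene, stood at 0.568 to 0.689 CPM (counts per 1000000 library counts) in EGFP libraries and 513 to 527 CPM in OmoMYC libraries, which matches the labels. Of 8 neuroblastoma markers (PHOX2A, HAND2, GATA3, TH, DBH, ISL1, CHGA and MYCN), all 8 were listed in both tables, with a summed level of 3239 to 4059 CPM over the 14 libraries. The catecholamine enzymes TH and DBH were the exception, with means of 0.238 and 0.405 CPM in EGFP libraries and 0.769 and 1.16 CPM in OmoMYC libraries. Markers of other cells were low but not equal between groups: 12 such genes, of which 9 were listed in the OmoMYC table, summed to 28.5 to 36.9 CPM in EGFP and 38.3 to 45.6 CPM in OmoMYC libraries, most of it from the collagen gene COL1A1 (means of 21.2 and 31.5 CPM). Of these genes, 11 were listed for parental cells and summed to 9.91 to 11.5 CPM with DMSO and 9.13 to 11.4 CPM with dTAG47. Their part in the results was not tested. Replicate libraries were less alike in the EGFP group, where chi-square divided by its degrees of freedom reached 42.1 between replicates 1 and 3, than in the OmoMYC group, where it was at most 8.58 (sampling of reads alone would put it near 1). The dTAG47 replicate 2 library stood apart from the other 7 parental libraries. It held 202 counts of the epithelial keratin gene KRT8 against 1 to 4 in each of the others, and 46 of KRT18 against 0 (both genes were picked after their values were seen). A set of 7 genes had at least 20 counts in it and at most 3 in any other parental library, so each parental result is also given without it where its call differs.

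The 250 bases before the start of each ID gene are shown because ID genes are classical targets both of SMADs and of bHLH factors, and the shared and unshared letters can be read directly. The sequences are from RefSeq (GRCh38.p14), run 5′ to 3′ on the gene's strand, and end at the base before the start. Capitals mark any CANNTG (the general E-box), any CAGAC (the SMAD-binding element) and any TATAAA, each searched on both strands. In ID1 a TATAAA on one strand overlaps one on the other and the run is written as 1 stretch.
ID1, chr20:31605039-31605288, plus strand: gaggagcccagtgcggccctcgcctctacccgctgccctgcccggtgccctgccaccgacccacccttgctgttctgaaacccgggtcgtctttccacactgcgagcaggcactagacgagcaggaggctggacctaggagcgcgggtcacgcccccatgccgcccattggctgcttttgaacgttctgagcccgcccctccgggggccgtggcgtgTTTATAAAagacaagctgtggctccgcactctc
ID2, chr2:8681806-8682055, plus strand: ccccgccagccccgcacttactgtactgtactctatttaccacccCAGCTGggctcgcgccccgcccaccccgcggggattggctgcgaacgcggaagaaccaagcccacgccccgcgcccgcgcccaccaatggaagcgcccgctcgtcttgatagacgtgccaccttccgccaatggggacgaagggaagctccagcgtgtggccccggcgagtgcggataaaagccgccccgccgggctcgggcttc
ID3, chr1:23559502-23559751, minus strand: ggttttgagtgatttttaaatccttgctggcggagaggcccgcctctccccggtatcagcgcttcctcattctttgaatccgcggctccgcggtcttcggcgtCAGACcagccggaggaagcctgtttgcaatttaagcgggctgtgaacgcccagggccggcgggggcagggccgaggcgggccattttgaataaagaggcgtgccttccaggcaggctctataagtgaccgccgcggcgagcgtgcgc
ID4, chr6:19837120-19837369, plus strand: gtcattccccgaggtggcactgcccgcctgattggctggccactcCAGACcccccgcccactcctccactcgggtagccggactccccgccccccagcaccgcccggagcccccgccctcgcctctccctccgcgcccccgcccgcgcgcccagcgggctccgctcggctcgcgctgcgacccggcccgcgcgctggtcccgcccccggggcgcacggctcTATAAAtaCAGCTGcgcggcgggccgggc
The canonical E-box of MYC proteins, CACGTG, occurred in none of these 4 windows, and it occurs in 6.34% of the 35116 promoter windows of the same length. A CANNTG of the form CAGCTG lay 205 bases before the start in ID2 and 21 bases before it in ID4, while the windows of ID1 and ID3 held none (61.8% of all windows hold one). The SMAD-binding element CAGAC stood 147 bases before the start in ID3 and 205 bases before it in ID4 (38.0% of all windows), and TATAAA 31 bases before it in ID1 and 29 in ID4 (10.7%). The GC-rich motif GGCGCC was also searched and occurred in none of these 4 windows (16.4% of all windows). The CCAAT motif occurred in the windows of ID1, ID2 and ID4, with 3 matches in ID2 (32.0%). The GC content was 66.0% for ID1, 69.2% for ID2, 62.0% for ID3 and 78.8% for ID4. A match of letters is not a binding site, and no binding data were used here.

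In the genome build of the counts (hg19), ID1 (ENSG00000125968.7) lies on the plus strand at chr20:30193086-30194318, ID2 (ENSG00000115738.5) at chr2:8818975-8824591 on the plus strand, ID3 (ENSG00000117318.8) at chr1:23884417-23885992 on the minus strand and ID4 (ENSG00000172201.6) at chr6:19837601-19842428 on the plus strand. The ligand genes are BMP4 (ENSG00000125378.11, chr14:54416454-54425479, minus strand) and BMP7 (ENSG00000101144.8, chr20:55743809-55841697, minus strand). The receptor genes are BMPR1A (ENSG00000107779.7, chr10:88516353-88692582, plus strand) and BMPR2 (ENSG00000204217.8, chr2:203241050-203432474, plus strand). The inhibitory SMAD genes are SMAD6 (ENSG00000137834.10, chr15:66994574-67075187, plus strand) and SMAD7 (ENSG00000101665.4, chr18:46446223-46477335, minus strand). Counts are per gene. Exons of ID2 overlap those of the antisense gene ID2-AS1 over 145 bases, exons of BMP4 overlap an antisense long non-coding RNA over 506 bases and those of BMPR2 another coding gene on the same strand over 57 bases, and the strand setting of the counting is not given in the sources used here, so reads in these stretches cannot be assigned with certainty.

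The ID genes other than ID4 were the most abundant of the 10 genes in every group, and BMP4 the least abundant. Levels of different genes are compared here as CPM per kilobase of exon, with libraries of each table scaled by edgeR's TMM factors. ID3 stood at 103 ± 8.64 CPM per kilobase in EGFP libraries (SD, n = 3) and ID1 at 90.5 ± 11.7, and the ranges of these 2 genes overlapped in that group only. ID2 followed at 27.4 ± 2.23, and BMPR2 at 10.9 ± 0.640. SMAD7 (5.33 ± 0.974) and SMAD6 (4.96 ± 1.01) came next with overlapping ranges, ahead of BMPR1A at 3.00 ± 0.277. ID4 (1.86 ± 0.0377), BMP7 (1.55 ± 0.143) and BMP4 (0.396 ± 0.0723) closed the order. The same order held in DMSO and dTAG47 libraries, where BMPR1A and ID4 overlapped, and in OmoMYC libraries apart from an exchange of SMAD6 (6.88) and SMAD7 (6.57), whose ranges overlapped. With the longest annotated transcript as the length, SMAD6 ranked above SMAD7 in all 4 groups, and BMP7 above ID4 in EGFP and DMSO libraries. BMP4 was at the edge of detection in parental cells, with 15 to 27 counts per DMSO library and 16 to 38 per dTAG47 library, and 31 to 47 counts in the libraries of the engineered lines. The tables were made separately, so levels across the experiments are side by side without a test.

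**Figure D1:**
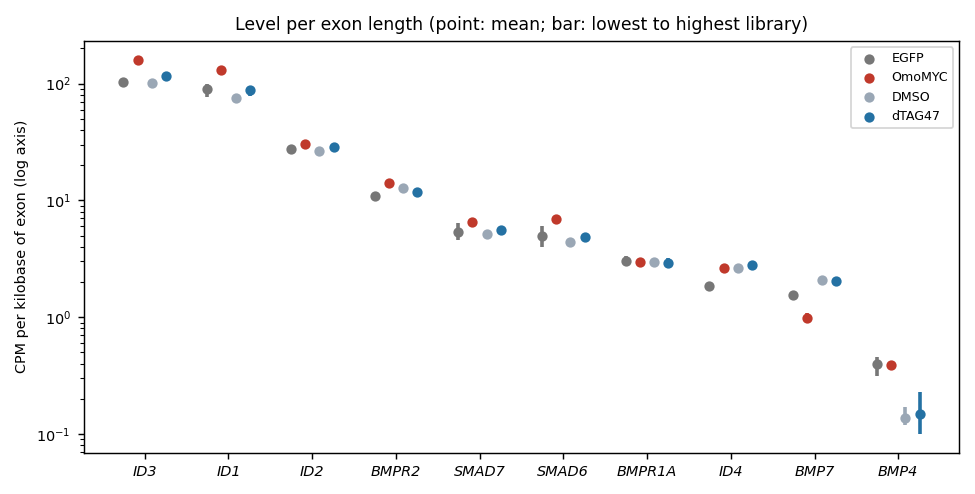
Mean level of each gene in CPM per kilobase of exon on a log axis, by group, with a bar from the lowest to the highest library. ID3, ID1 and ID2 lie above the other genes in all 4 groups, from 26.6 (ID2 with DMSO) to 158 (ID3 with OmoMYC), and BMP4 lies lowest at 0.136 to 0.396.

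Induction of OmoMYC compared to EGFP induced ID1, ID3, ID4, BMPR2 and SMAD6 and suppressed BMP7. ID2, BMP4, BMPR1A and SMAD7 did not pass the test. Genes were called by edgeR's quasi-likelihood test with Benjamini-Hochberg adjustment over 13803 genes at an adjusted p-value (FDR) of 0.05. Of the 10 genes, 5 were called higher, against 27.3% of all tested genes, and 1 was called lower, against 25.7%. For 6 of the 10 genes the ranges of the groups did not overlap, against 62.3% of all tested genes, so a lack of overlap does not by itself set these genes apart. The median log2 fold change of the 10 genes was 0.33, and that of all tested genes 0.01. The changes were moderate, none larger than a log2 fold change of 0.67 in size.

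**Figure D2:**
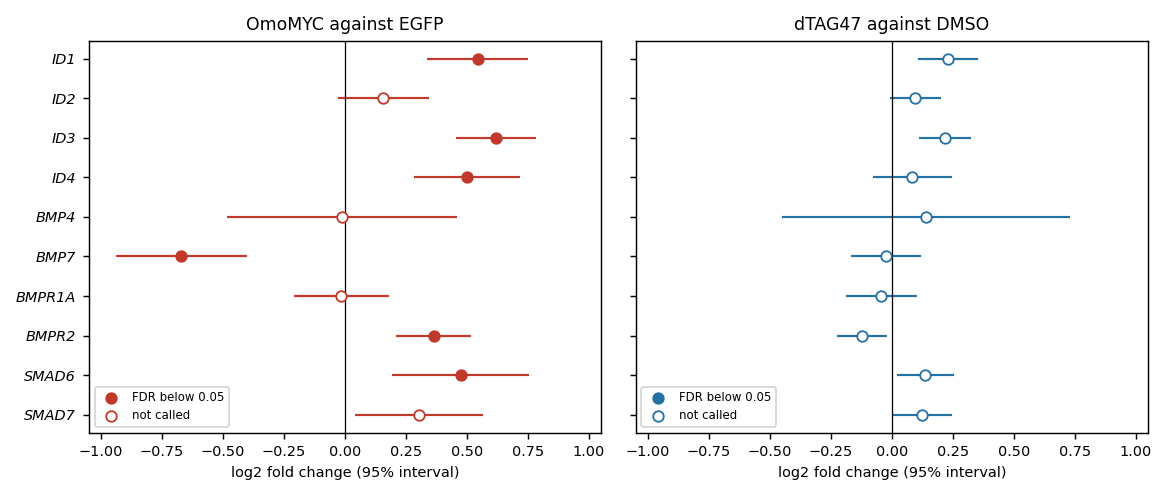
Fitted log2 fold change of each gene with its 95% interval in both comparisons; filled points have an FDR below 0.05. In the OmoMYC comparison 6 genes are filled, from BMP7 at -0.67 to ID3 at 0.62, and in the dTAG47 comparison none is.

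BMP7 was suppressed and BMP4 was not called, and the difference between these ligands was not tested. BMP7, a ligand with roles in kidney, eye and nervous system development, was counted at 7.54, 8.99 and 8.75 CPM in EGFP replicates 1 to 3 and at 5.01, 5.01 and 5.85 CPM in OmoMYC replicates 1 to 3. The OmoMYC values were all below the EGFP values, and the log2 fold change was -0.67 (standard error 0.12, FDR = 0.00108, edgeR). BMP4, the ligand that with BMP2 patterns the dorsal neural tube and sympathetic precursors, was counted at 0.978, 1.29 and 1.41 CPM with EGFP and at 1.30, 1.22 and 1.12 CPM with OmoMYC. The OmoMYC values fell inside the EGFP range, and the log2 fold change was -0.01 with a 95% interval of -0.48 to 0.46 (FDR = 0.968, edgeR). Counting error alone is 14.6% to 18.0% per library for BMP4, so a change within that interval was not detectable at this depth.

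Of the receptors, BMPR2 was induced and BMPR1A was not called. BMPR2, the type II receptor that phosphorylates the type I partner, was counted at 144, 137 and 128 CPM with EGFP and 169, 183 and 173 CPM with OmoMYC. The groups did not overlap, and the log2 fold change was 0.36 (standard error 0.07, FDR = 0.00163, edgeR). BMPR1A, a type I receptor for BMP2 and BMP4, stood at 33.4, 29.2 and 28.1 CPM with EGFP and 30.9, 30.3 and 28.6 CPM with OmoMYC. The OmoMYC values all lay within the EGFP range, and the interval of the log2 fold change ran from -0.21 to 0.18 (FDR = 0.901, edgeR).

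SMAD6, which blocks BMP signalling with some preference over TGF-beta signalling, was counted at 34.1, 41.8 and 51.3 CPM with EGFP and 57.8, 56.4 and 62.5 CPM with OmoMYC. All OmoMYC libraries were above all EGFP libraries, which spread more widely, and the log2 fold change was 0.47 (standard error 0.13, FDR = 0.00948, edgeR). Without OmoMYC replicate 3 it was 0.40 and no longer called (FDR = 0.0596, edgeR). SMAD7, which acts on both the BMP and the TGF-beta branch, was counted at 18.0, 19.8 and 25.3 CPM with EGFP and 26.1, 26.4 and 25.3 CPM with OmoMYC. EGFP replicate 3 reached the lowest OmoMYC library, and the log2 fold change of 0.30 had an FDR of 0.0508 by edgeR. With single libraries left out the log2 fold change of SMAD7 ran from 0.19 without EGFP replicate 1 to 0.43 without EGFP replicate 3, the only one of these fits that called it (FDR = 0.000983, edgeR), while other FDRs reached 0.192. Of 10 other settings with all libraries, 6 called SMAD7, among them DESeq2 (FDR = 0.0387) and limma-voom (FDR = 0.0396).

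ID1 and ID3 were induced together and ID4 was induced from a low level. ID1 was counted at 95.4, 116 and 123 CPM with EGFP and 170, 156 and 162 CPM with OmoMYC. Its groups were well apart, with a log2 fold change of 0.54 (standard error 0.09, FDR = 0.000814, edgeR), a rise of 45.8%. ID3 was counted at 140, 157 and 165 CPM with EGFP and 239, 231 and 241 CPM with OmoMYC. It too showed no overlap, with a log2 fold change of 0.62 (standard error 0.07, FDR = 8.44e-05, edgeR), a rise of 53.7%. In both genes EGFP replicate 1 was the lowest library, and without it the log2 fold changes were 0.43 for ID1 and 0.54 for ID3. ID4, the member that can oppose the other ID proteins in some settings, was counted at 7.35, 7.23 and 7.06 CPM with EGFP and 10.7, 10.2 and 9.67 CPM with OmoMYC. The spread of ID4 within a group was small beside the difference, and the log2 fold change was 0.50 (standard error 0.10, FDR = 0.00188, edgeR).

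ID2, the family member described as a partner of unphosphorylated RB1, was counted at 66.0, 59.4 and 56.3 CPM with EGFP and 67.0, 72.1 and 63.6 CPM with OmoMYC. The ranges overlapped through EGFP replicate 1, and the log2 fold change was 0.16 with an interval of -0.03 to 0.34 (FDR = 0.138, edgeR). With single libraries left out it ran from 0.07 without OmoMYC replicate 2 (FDR = 0.574, edgeR) to 0.21 without EGFP replicate 1, where it was called (FDR = 0.0185). Whether the response of ID2 differed from that of ID1 or ID3 was not tested. Summed over ID1 to ID4, the libraries held 309 to 352 CPM with EGFP and 469 to 487 CPM with OmoMYC.

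**Figure D3:**
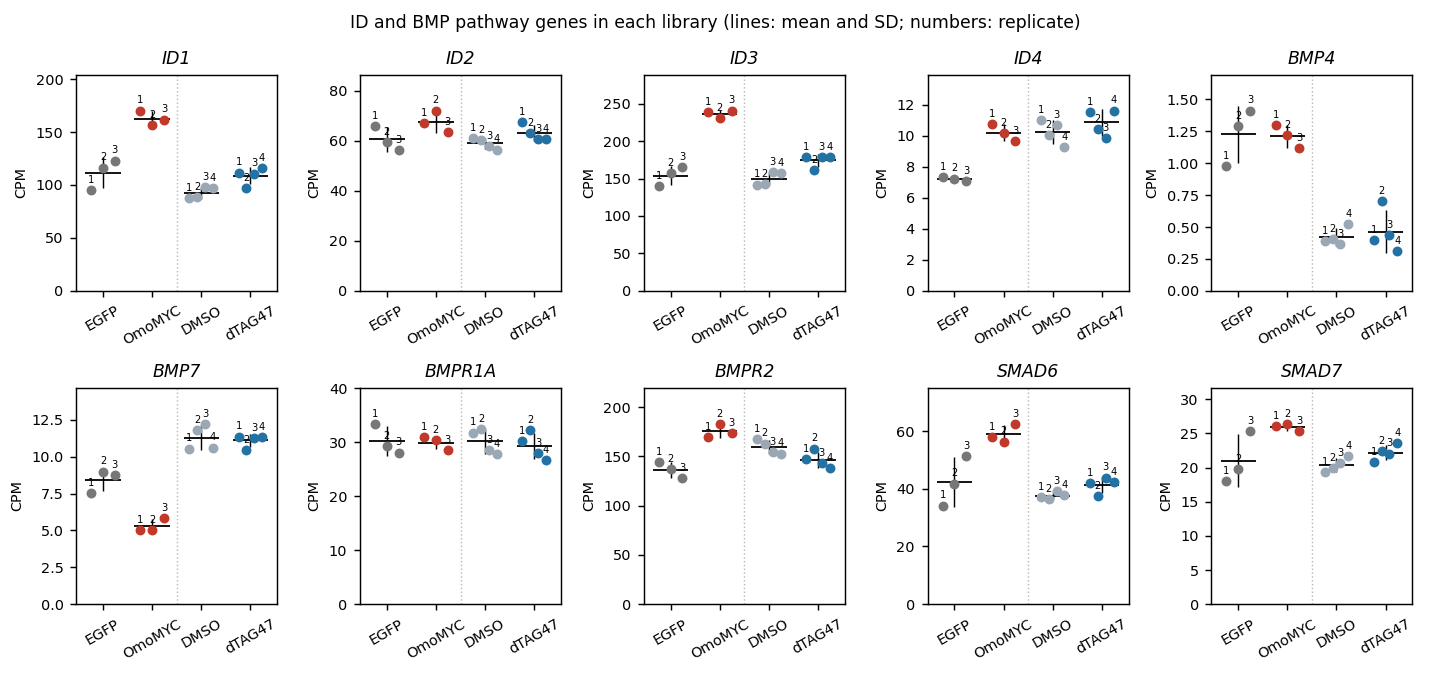
CPM of each gene in each of the 14 libraries on linear axes that start at 0, with the group mean (horizontal line), SD (vertical line) and replicate numbers. For ID1, ID3, ID4, BMPR2 and SMAD6 the OmoMYC libraries sit above the EGFP libraries and for BMP7 below, while in parental cells the dTAG47 replicate 2 library has the lowest dTAG47 value of ID1 (96.8) and ID3 (161).

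These values depended on how gene length and GC content were treated more than on any other setting. When a trend of log2 counts on exon length and GC content was removed from each library, 2935 genes (21.7%) were called higher and 5349 (39.6%) lower, against 3766 and 3545 without the removal, and the median log2 fold change of all genes was -0.09. Calls and FDRs with this trend removed, here and below, came from limma on the corrected log2 CPM. Calls gained or lost against edgeR therefore also include the change of test, and the parts of the 2 were not separated. ID1 (0.28), ID3 (0.39), ID4 (0.68) and BMPR2 (0.47) were still called higher and BMP7 (-1.02) lower. Their FDRs ran from 8.40e-09 to 1.52e-05 in limma. SMAD6 was no longer called at a log2 fold change of 0.02 (FDR = 0.749, limma), and SMAD7 stood at -0.01 and ID2 at -0.00372.

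**Figure D4:**
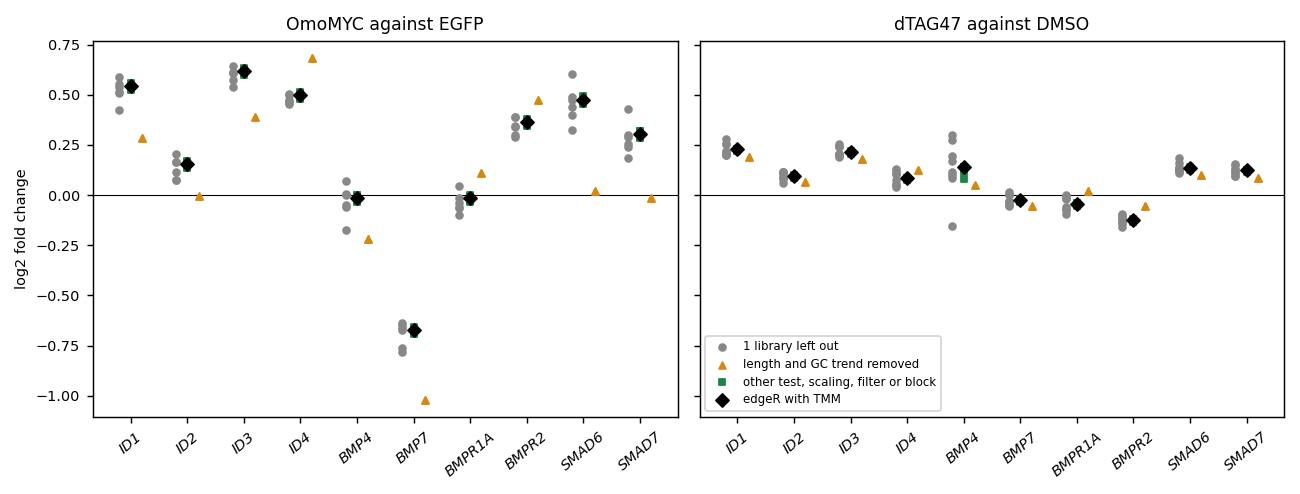
Log2 fold change of each gene under each setting: all libraries with TMM (black), 1 library left out (grey), other tests, scalings, filters or blocks (green) and the length and GC trend removed (orange). In the OmoMYC comparison the orange points move SMAD6 from 0.47 to 0.02 and SMAD7 from 0.30 to -0.01, and in the dTAG47 comparison all points of ID1 and ID3 lie between 0.18 and 0.28.

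Beyond the 10 genes, 8 lists of pathway genes were read from the same OmoMYC fit, holding 124 tested genes of 161 listed. Of these, 33 were called higher and 39 lower, against 27.3% and 25.7% of all tested genes. Their median log2 fold change was -0.06. With the length and GC trend removed 60 were called lower, against 39.6% of all genes in that setting. The lists were not tested as sets.

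Among the receptor-regulated SMADs and their partners, SMAD1 rose and SMAD5 fell. SMAD1 averaged 14.2 ± 0.778 CPM in EGFP and 30.4 ± 1.17 CPM in OmoMYC libraries (± SD, n = 3 per group), a log2 fold change of 1.10 (FDR = 3.89e-06, edgeR), and SMAD5 from 155 ± 22.1 to 121 ± 6.17 CPM, one of -0.36 (FDR = 0.0109), which was -0.16 with the length and GC trend removed. SMAD9 rose by a log2 fold change of 0.17 (FDR = 0.0385, edgeR), a call that held in only 1 of the 6 fits that left out a library, the one without EGFP replicate 1, and that was lost under DESeq2 (FDR = 0.0643). Of 10 other settings with all libraries, 6 called SMAD9, among them the trend removal (0.24, FDR = 2.01e-05, limma). The shared partner SMAD4 had a log2 fold change of -0.17 (FDR = 0.151, edgeR), which ran from -0.08 without EGFP replicate 1, not called, to -0.27 without EGFP replicate 3, where it was called (FDR = 0.0137). SMAD4 was also called with the trend removed (-0.14, FDR = 0.00922, limma). FKBP1A, which holds type I receptors inactive without ligand, had one of -0.02 (FDR = 0.841). Of all 24 tested SMADs and regulators, 6 were called higher and 5 lower (27.3% and 25.7% of all tested genes), with a median of 0.08. HIVEP1, a zinc finger protein that works with SMADs, rose as well (0.73, FDR = 1.51e-05), and the phosphatase gene CTDSPL fell by 0.32 on the log2 scale (FDR = 0.0240), a call lost when EGFP replicate 2 (FDR = 0.0824) or OmoMYC replicate 2 (0.0721) or 3 (0.0544) was left out.

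Of 10 tested BMP and GDF ligands, 4 were called higher and 2 lower, against 27.3% and 25.7% of all tested genes (median 0.06). BMP8B rose (0.86, FDR = 0.000135, edgeR, and 0.52 with the length and GC trend removed) and so did AMH, the anti-Müllerian hormone (0.66, FDR = 0.00791), although AMH was not called with that trend removed (0.24, FDR = 0.0729). GDF6 fell from 2.93 ± 0.404 to 1.38 ± 0.165 CPM (-1.08, FDR = 0.000645). Among 9 tested receptors and coreceptors, 3 were called higher and 2 lower, against the same shares (median 0.16). NEO1, the receptor for repulsive guidance molecules, rose from 105 ± 3.31 to 131 ± 3.64 CPM (0.31, FDR = 0.00265, and 0.14 with the trend removed). The coreceptor ENG rose as well (0.70, FDR = 0.0104), but was not called without OmoMYC replicate 3 (0.54, FDR = 0.0584) or with the trend removed (0.25, FDR = 0.191). The coreceptors TGFBR3 (-1.12, FDR = 0.000833) and RGMA (-0.54, FDR = 0.00393, and -1.0 with the trend removed) fell.

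Of 14 tested extracellular antagonists and modulators, 5 were called higher and 5 lower, against 27.3% and 25.7% of all tested genes (median -0.03). Chordin (CHRD), which traps BMP ligands outside the cell, rose from 6.14 ± 1.35 to 17.4 ± 2.28 CPM (1.5, FDR = 4.05e-05, edgeR). FSTL3, a follistatin-like protein that binds activins and BMPs, rose from 13.7 ± 3.16 to 29.6 ± 0.838 CPM (1.12, FDR = 0.000104). With the length and GC trend removed CHRD stood at 0.98 and FSTL3 at 0.72. Noggin (NOG), another ligand trap, fell from a low level (1.57 ± 0.443 to 0.884 ± 0.296 CPM, -0.86, FDR = 0.0314), and was not called without EGFP replicate 3 (-0.64, FDR = 0.0870), OmoMYC replicate 2 (-0.63, FDR = 0.104) or OmoMYC replicate 3 (-0.93, FDR = 0.0594). DAND5 fell too (-0.76, FDR = 0.00825).

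Of 19 other BMP target genes, 6 were called higher and 5 lower, shares near the 27.3% and 25.7% of all tested genes (median 0.09). TBX3, a T-box repressor, rose from 56.8 ± 6.01 to 211 ± 6.02 CPM (1.89, FDR = 6.52e-08, edgeR). The homeobox gene MSX2 rose (1.18, FDR = 0.000562) while its relative MSX1 fell (-0.65, FDR = 0.00377), as did DLX5 (-0.92, FDR = 0.000126). In the TGF-beta and activin branch 5 of 21 genes were called higher and 6 lower, against the same shares of all genes (median -0.00487). LTBP2 (1.53, FDR = 2.17e-06) and LTBP3 (0.69, FDR = 0.00122), which bind latent TGF-beta or matrix fibres, rose most among those called and averaging 1 CPM or more, the latter not called with the trend removed (0.10, FDR = 0.154). The activin subunit gene INHBE fell (-0.77, FDR = 0.000346), and the receptor gene ACVR1C fell (-0.80, FDR = 0.0158, and -0.52 with the trend removed) but was not called without EGFP replicate 1 (-0.58, FDR = 0.0540), OmoMYC replicate 1 (FDR = 0.0512) or OmoMYC replicate 2 (FDR = 0.0508).

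The E proteins, which ID proteins hold in dimers, were read in a further list together with other bHLH factors. Of 19 tested E proteins and other bHLH factors, 11 were called lower, against 25.7% of all tested genes, and 3 higher, against 27.3%, with a median log2 fold change of -0.42. The median stayed between -0.44 and -0.40 in every setting without the length and GC removal and was -0.68 with it. The 3 E proteins did not move together. TCF4 rose from 349 to 488 CPM (0.49, FDR = 0.000128, edgeR) and TCF12 fell from 273 to 213 CPM (-0.36, FDR = 0.00211). TCF3 had a log2 fold change of -0.17 with an interval of -0.39 to 0.04 (FDR = 0.154), which was -0.29 and called without EGFP replicate 1 (FDR = 0.00113) and -0.66 and called with the trend removed (FDR = 1.96e-11). Of the tissue-specific factors, the proneural genes NEUROD4 (-1.43, FDR = 7.83e-05) and NEUROG2 (-1.35, FDR = 0.00250) fell most among those called and averaging 1 CPM or more. NHLH2, a neuronal bHLH gene, rose (0.72, FDR = 3.42e-05). BHLHE41, a repressor of the circadian clock, rose from 0.257 ± 0.0522 to 2.76 ± 0.298 CPM (3.39, FDR = 2.25e-06). Of 8 cell cycle inhibitors whose action ID proteins oppose, 3 were called lower and 1 higher, against 25.7% and 27.3% of all tested genes (median -0.29). The pocket protein genes RBL1 (-0.52, FDR = 0.000937) and RBL2 (-0.41, FDR = 0.00152) fell. CDKN1B, which encodes the inhibitor p27, rose by 0.22 (FDR = 0.0176, edgeR), a call that held only without EGFP replicate 1 among the 6 fits that left out a library (FDRs up to 0.123).

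**Figure D5:**
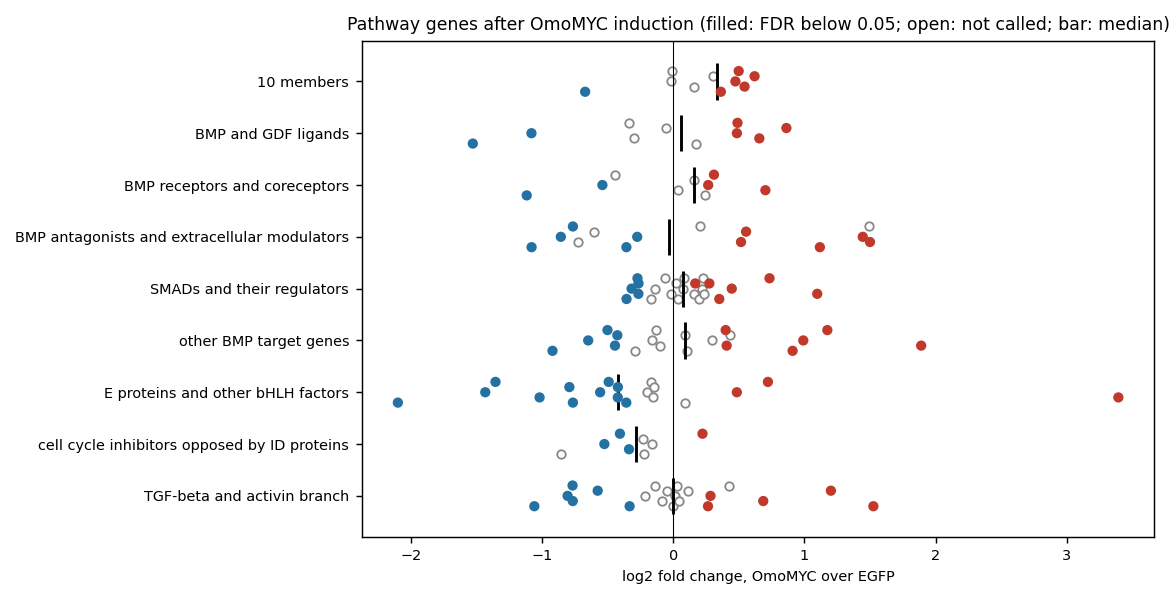
Log2 fold change of each tested gene after OmoMYC induction, for the 10 genes and for 8 pathway lists; filled points have an FDR below 0.05 and the black bar is the median of the list. The median of the 10 genes lies at 0.33 and that of the E proteins and other bHLH factors at -0.42, while the 6 lists other than these and the cell cycle inhibitors have medians from -0.03 to 0.16.

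In parental cells, 18 hr of dTAG47 gave 0 calls among the 10 genes by edgeR's quasi-likelihood test, against 0.159% of 14470 tested genes. At an unadjusted p-value below 0.05 there were 4 of them (ID1, ID3, BMPR2 and SMAD6), against 1053 of all genes, DESeq2 called ID3 alone (0.408% of all genes) and limma-voom called none. With the length and GC trend removed, limma called ID1 (0.19, FDR = 0.00656) and ID3 (0.18, FDR = 0.00207). Over the 14201 genes of that setting, 77 were called higher and 39 lower. Of the 126 tested genes of the 8 lists, 0 were called, with a median log2 fold change of -0.01. TCF3, TCF4, TCF12, SMAD1, SMAD5, SMAD9, SMAD4 and FKBP1A were all uncalled, with log2 fold changes from -0.09 (SMAD5) to 0.09 (SMAD1).

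ID3 was the only one of the 10 genes whose dTAG47 libraries lay entirely above the DMSO libraries, against 3.34% of all tested genes without overlap in either direction. It was counted at 142, 143, 159 and 157 CPM in DMSO replicates 1 to 4 and at 179, 161, 179 and 178 CPM in dTAG47 replicates 1 to 4. The gap between the groups was narrow, since dTAG47 replicate 2 came close to the highest DMSO library. The log2 fold change of ID3 was 0.22 with an interval of 0.11 to 0.32, and its FDR was 0.163 by edgeR and 0.0295 by DESeq2. ID1 was counted at 87.3, 88.6, 98.0 and 97.2 CPM with DMSO and 112, 96.8, 111 and 116 CPM with dTAG47. Only dTAG47 replicate 2 fell within the DMSO range. The log2 fold change of ID1 was 0.23 with an interval of 0.11 to 0.35 (FDR = 0.275, edgeR). Without dTAG47 replicate 2, the library with the keratin counts, both were called at 0.28 for ID1 (FDR = 0.0136, edgeR) and 0.25 for ID3 (FDR = 0.0183), against 0.579% of all genes in that fit.

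The other genes moved less. ID2 had a log2 fold change of 0.10 with an interval of -0.01 to 0.20, and ID4 one of 0.08 with an interval of -0.08 to 0.24. BMPR2 averaged 159 ± 7.12 CPM in DMSO and 146 ± 8.39 CPM in dTAG47 libraries (± SD, n = 4 per group), a log2 fold change of -0.12 with an interval of -0.23 to -0.02. SMAD6 had one of 0.14 (interval 0.02 to 0.25) and SMAD7 one of 0.12 (-0.000167 to 0.25). FDRs of these 5 genes by edgeR ran from 0.673 to 0.748. BMP7 stood at 11.3 ± 0.848 and 11.1 ± 0.438 CPM and BMPR1A at 30.2 ± 2.31 and 29.3 ± 2.42 CPM, and the intervals of their log2 fold changes ran from -0.17 to 0.12 and from -0.19 to 0.10. For BMP4 the interval was -0.45 to 0.73, the widest of the 10, at 15 to 38 counts per library.

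Replicates 1 and 2 of the DMSO group resembled each other more than they did replicates 3 and 4. The same chi-square ratio was 2.64 and 3.15 within these sets and 8.70 to 11.3 between them. In the dTAG47 group it was 8.17 between replicates 1 and 2 and 2.66 between replicates 3 and 4. Between these sets it was 5.68 to 22.4 in that group. There replicate 1 was nearer to replicate 3 (5.68) than to replicate 2, so by this ratio the sets seen with DMSO did not hold for it. Deviations of libraries from their group mean were also correlated between the groups. For dTAG47 replicate 1 these correlations were 0.00930 and 0.0843 with DMSO replicates 1 and 2, and -0.0191 and -0.0761 with 3 and 4. Over all replicates they ran from 0.00930 to 0.247 within the sets and from -0.226 to -0.0191 between them. For ID1, DMSO libraries ranged from 87.3 to 88.6 CPM in the first set and from 97.2 to 98.0 CPM in the second, and the dTAG47 libraries lay above them in each set, with log2 ratios of means of 0.25 and 0.21. For ID3 these ratios were 0.26 and 0.18, again without overlap in either set. ID2, SMAD6 and SMAD7 were likewise higher and BMPR2 lower with dTAG47 in both sets without overlap, which makes 6 of the 10 genes, against 17.6% of all tested genes. With a factor for these sets in the fit, edgeR called ID1 (0.23, FDR = 0.000341), ID3 (0.22, FDR = 9.28e-05), SMAD6 (0.14, FDR = 0.0400) and BMPR2 (-0.12, FDR = 0.0143), 4 of 10 against 5.49% of all genes. The labels do not say what the sets are, and the factor was chosen with earlier results of these data known, so these calls describe the libraries and add no independent test.

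For the genes called in the OmoMYC comparison, the values of both comparisons can be set side by side, since no library is shared between the comparisons. In the dTAG47 comparison edgeR's test without covariates called none of these genes with all libraries. ID1 had a log2 fold change of 0.54 with OmoMYC and 0.23 with dTAG47, and ID3 0.62 and 0.22. SMAD6 had 0.47 and 0.14, BMPR2 0.36 and -0.12, BMP7 -0.67 and -0.02, and ID4 0.50 and 0.08. The difference between the comparisons was not tested.

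The gene whose profile was nearest to that of ID1 over the 14 libraries was ID3, and the reverse also held. Nearness was measured as the root mean square difference of log2 CPM among 13424 genes tested in both comparisons, with each gene centred on its own mean within each experiment. ID1 and ID3 differed by 0.05 on this measure. After ID3, the nearest genes to ID1 were MMP24 and ASS1 (0.05 each), and after ID1 the nearest to ID3 were GDAP1L1 and UBL7 (0.05 each). SMAD6 ranked 85 for ID1 (0.08) and 236 for ID3 (0.09). The genes nearest to ID2 were TMEM66, RNF145 and TMED10 (0.04 each), and those nearest to ID4 were MARCH11, ATG14 and REEP1 (0.07 each). ID2 and ID4 ranked 4048 and 1547 for ID1. All points share their libraries and the doxycycline or compound contrast, so nearness largely follows the 2 contrasts and is a description.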

How the data were processed

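The deposited values are raw counts per gene, which the authors made with FeatureCounts from reads trimmed by Cutadapt and mapped by STAR (genome build hg19). Tool versions, annotation, strand setting and treatment of multiply mapped reads are not given in the sources used here. The study describes the replicates as biological, with 3 per group in the OmoMYC experiment and 4 in the parental experiment. Each table was analysed separately with edgeR 4.0.16, DESeq2 1.42.0 and limma 3.58.1 under R 4.3.3: filterByExpr at its defaults, TMM scaling, the robust quasi-likelihood test without covariates, and Benjamini-Hochberg adjustment over all tested genes at 0.05. DESeq2, the study's tool, was an alternative. log2 CPM used a prior count of 2. The 250 bases of promoter and the hg19 gene coordinates came from RefSeq (GRCh38.p14) and from GENCODE lifted to GRCh37, in which 18766 of 19726 identifiers were found. In the length and GC setting, a spline with 4 degrees of freedom per feature was removed from each library. Genes were then called by limma's moderated t-test on the corrected log2 CPM.

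The 10 genes, the 8 lists, the markers and the replicate sets were chosen with earlier results of these data known. Besides the 10 genes, the text names TCF3, TCF4, TCF12, SMAD1, SMAD5, SMAD9, SMAD4 and FKBP1A, the called genes of each list with the 2 largest rises and the 2 largest falls at a mean of at least 1 CPM, and the 3 genes nearest to each ID gene. RBL1 is listed under more than one identifier. In tests on simulated counts, edgeR found 183 of 200 changed genes in the OmoMYC design (4.69% of calls false) and 196 in the parental design (4.39%). Recovery of shifts as small as those of ID1 and ID3 in parental cells was not tested. Nor was that of shifts as small as those of BMPR2, SMAD7 and ID2 with OmoMYC. The changed genes were all well counted, so these rates do not cover genes as low as BMP4. The OmoMYC data also had far more calls (3766 higher and 3545 lower) than the 200 changes simulated. Alternatives were other scaling factors, other count filters, DESeq2, limma-voom, a replicate block, the length and GC removal, a factor for replicate sets and leaving out each library. The authors' DESeq2 results were not used here. A further marker gene is not reported here.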

Additional observations from a re-analysis of the deposited data

Results flagged for a closer look

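In the dTAG47 group, replicate 2 was flagged as apart from the other 3 libraries for 2 of the 10 genes. For ID3 it held 161 CPM against 178 to 179 CPM in the others, a gap of 0.956 of the group's range, and for BMP7 it held 10.5 CPM against 11.3 to 11.4 CPM, a gap of 0.899. Both exceed the 95% critical value of Dixon's test for 4 samples. Chance flags about 1 in 20 groups, and all 10 genes were screened in both parental groups. For BMP7 the counting error of this library alone is 4.21%. This is the library with the counts of KRT8 and KRT18, and the part of whatever set it apart in these values was not tested.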

How the results depend on the processing

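In the OmoMYC comparison, ID1, ID3, ID4, BMPR2 and BMP7 kept their direction and their calls in all 16 alternatives. Removing the length and GC trend gave 5349 genes called lower, 60 of them in the pathway lists, and with a replicate block as well 5458 and 60. It turned the log2 fold changes of ID2 (-0.00372), SMAD7 (-0.0127) and BMPR1A (0.111), with the same values under the block. Uncalled values near 0 also changed sign: BMP4 with library size only (0.00247), limma-voom (0.00213) and without EGFP replicate 2 (0.00157), EGFP replicate 3 (0.0716) or OmoMYC replicate 3 (0.00713), and BMPR1A with library size only (0.000316) and without EGFP replicate 1 (0.0470). With single libraries left out BMP4 ran from -0.174 to 0.0716 and BMPR1A from -0.0980 to 0.0470. In parental cells BMPR1A (0.0217) and TCF12 (0.0413) changed sign with the trend removed, with or without the block. So did BMPR1A without dTAG47 replicate 4 (0.00188), TCF12 without dTAG47 replicate 3 (0.00421), BMP7 without DMSO replicate 3 (0.0148) or dTAG47 replicate 2 (0.00540), and BMP4 without dTAG47 replicate 2 (-0.154). Over the libraries left out BMPR1A ran from -0.0918, TCF12 from -0.0250 and BMP7 from -0.0550 up to these values, and BMP4 up to 0.300. The cause was not tested.

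The parental counts of calls, 17 higher and 6 lower over all genes, depended on the setting: 11 higher with library size only, 43 and 16 with DESeq2, 77 and 39 with the trend removed, and 374 and 420 with the factor for replicate sets. With single libraries left out they ran from 4 to 52 and from 2 to 32, the upper values without dTAG47 replicate 2. Of the 10 genes, DESeq2 called 1 higher, the trend removal 2, the replicate sets 3 higher and 1 lower, and the leave-one-out fits 0 to 2. Of the pathway genes these settings called 0, 2, 2 and 0 to 2 higher, and 1, 2, 6 and 0 lower.

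Replicates share numbers across groups, but in the OmoMYC experiment not every same-numbered pair deviated together (correlations of -0.0697 to 0.293). EGFP replicate 1 there correlated best with OmoMYC replicate 2 (0.252). In parental cells all same-numbered correlations were positive (0.00930 to 0.159). However, DMSO replicate 1 correlated best with dTAG47 replicate 2 (0.247), and DMSO replicate 3 with dTAG47 replicate 4 (0.184). Same-numbered replicates were therefore not taken as pairs in either experiment. A replicate block called SMAD7 (0.315, adjusted p = 0.00851) and TCF3 (-0.167, adjusted p = 0.0375) in the OmoMYC comparison by edgeR. It gave 306 higher and 362 lower calls in parental cells, with 3 of the 10 genes higher and 1 lower and 3 and 5 pathway genes. With the trend removed as well it gave 99 and 40, with 2 of the 10 genes higher and 3 and 2 pathway genes. Depth limits BMP4 most.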
